A study of Rattus norvegicus with 6 samples.

Results

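The genes described here encode the nuclear subunits of the mitochondrial respiratory chain and the ATP synthase. They were chosen by name: a non-control array probe was a member when its RefSeq accession mapped to a rat symbol beginning with Nduf (Ndufaf assembly factors left out), Uqcr, Cox4 to Cox8 or Atp5, or to Sdha, Sdhb, Sdhc or Sdhd. No measured value entered this choice. It gave 77 probes for 75 genes, of 24684 non-control probes and 13903 named genes on the array. Complex I had 33 genes, complex II 4, complex III 7, complex IV 16 and complex V 15. Subunits encoded by mitochondrial DNA were not analysed here.

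Respiration passes electrons from NADH through complex I, or from succinate through complex II, to coenzyme Q. Complex III hands them on to cytochrome c, and complex IV, cytochrome c oxidase, gives them to oxygen. Complexes I, III and IV pump protons across the inner mitochondrial membrane, and complex V, the ATP synthase, lets the protons back to make ATP. The acinar cell, the main cell of the exocrine pancreas, uses this ATP for protein synthesis and for clearing calcium from the cytosol. Mitochondrial failure in acinar cells is a known feature of experimental pancreatitis.

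RNA came from the whole pancreas of male rats aged 6 weeks, in an acute pancreatitis (AP) group and a control group. AP was induced by injecting 4% sodium taurocholate, a bile salt, backwards into the pancreatic duct at 1 mL/kg, and the animals were killed 9 h later. Whether control animals underwent surgery is not stated in the labels, and no strain is named. Each group had 3 deposited scans of 1-colour Agilent arrays, but spot-level noise showed that AP 3 rescanned the array of AP 2 (r = 0.992) and control 3 that of control 2 (r = 0.993). Repeat scans were averaged, which left 2 arrays per group, taken here to come from separate rats.

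Across the scans, 10905 to 11367 probes were well above background in AP and 13039 to 15388 in control, and the 75th percentile of the signal was 70.1 to 77.7 in AP and 140 to 147 in control. Every value below is a log2 signal relative to that percentile of its own array. Without any scaling the median of all genes tested lay at -0.99 (log2, AP minus control), and with it at -0.03, so that changes are relative to the bulk of each array. Dividing by the percentile over probes detected on every scan put that median at 0.12. Of 8728 genes tested with limma, 31.9% were lower in AP and 24.1% higher at a Benjamini-Hochberg adjusted p below 0.05, the threshold for every call below. Among the 6761 genes above background on all 6 scans these shares were 30.8% and 28.0%.

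Of the 75 subunit genes, 67 could be tested and 62 were well above background on all 6 scans. Another 4 (Ndufs4, Ndufs8, Uqcrb and Cox6b1) were above it on the control scans only, and Ndufa4 on the AP scans only. These 5 passed the filter through 1 group, so that a difference was built into their selection. The 8 genes left untested were Ndufa7, Ndufab1, Ndufb5, Ndufb11, Uqcrq, Cox6a2, Cox8b and Cox8c.

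The subunits were mostly lower in AP. Of the 62 measured on all scans, 48 fell, 3 rose and 11 were not called, against the array-wide shares of 30.8% lower and 28.0% higher given above. Their median difference was -0.94, 1.92-fold lower in AP, with quartiles of -1.28 and -0.57. The median of all 6761 such genes was 0.04, and 17.4% of them lay below the subunits' median. Over all 67 tested subunits 51 were lower and 4 higher, with a median of -0.95, beside the shares of 31.9% lower and 24.1% higher over all 8728 genes. The subunits' median level was 2.72 and 2.76 on the AP arrays and 3.61 and 3.74 on the control arrays. Arrays of 1 group differed little by comparison: the median absolute difference over the 62 genes was 0.0882 between the AP arrays and 0.117 between the control arrays.

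**Figure D1:**
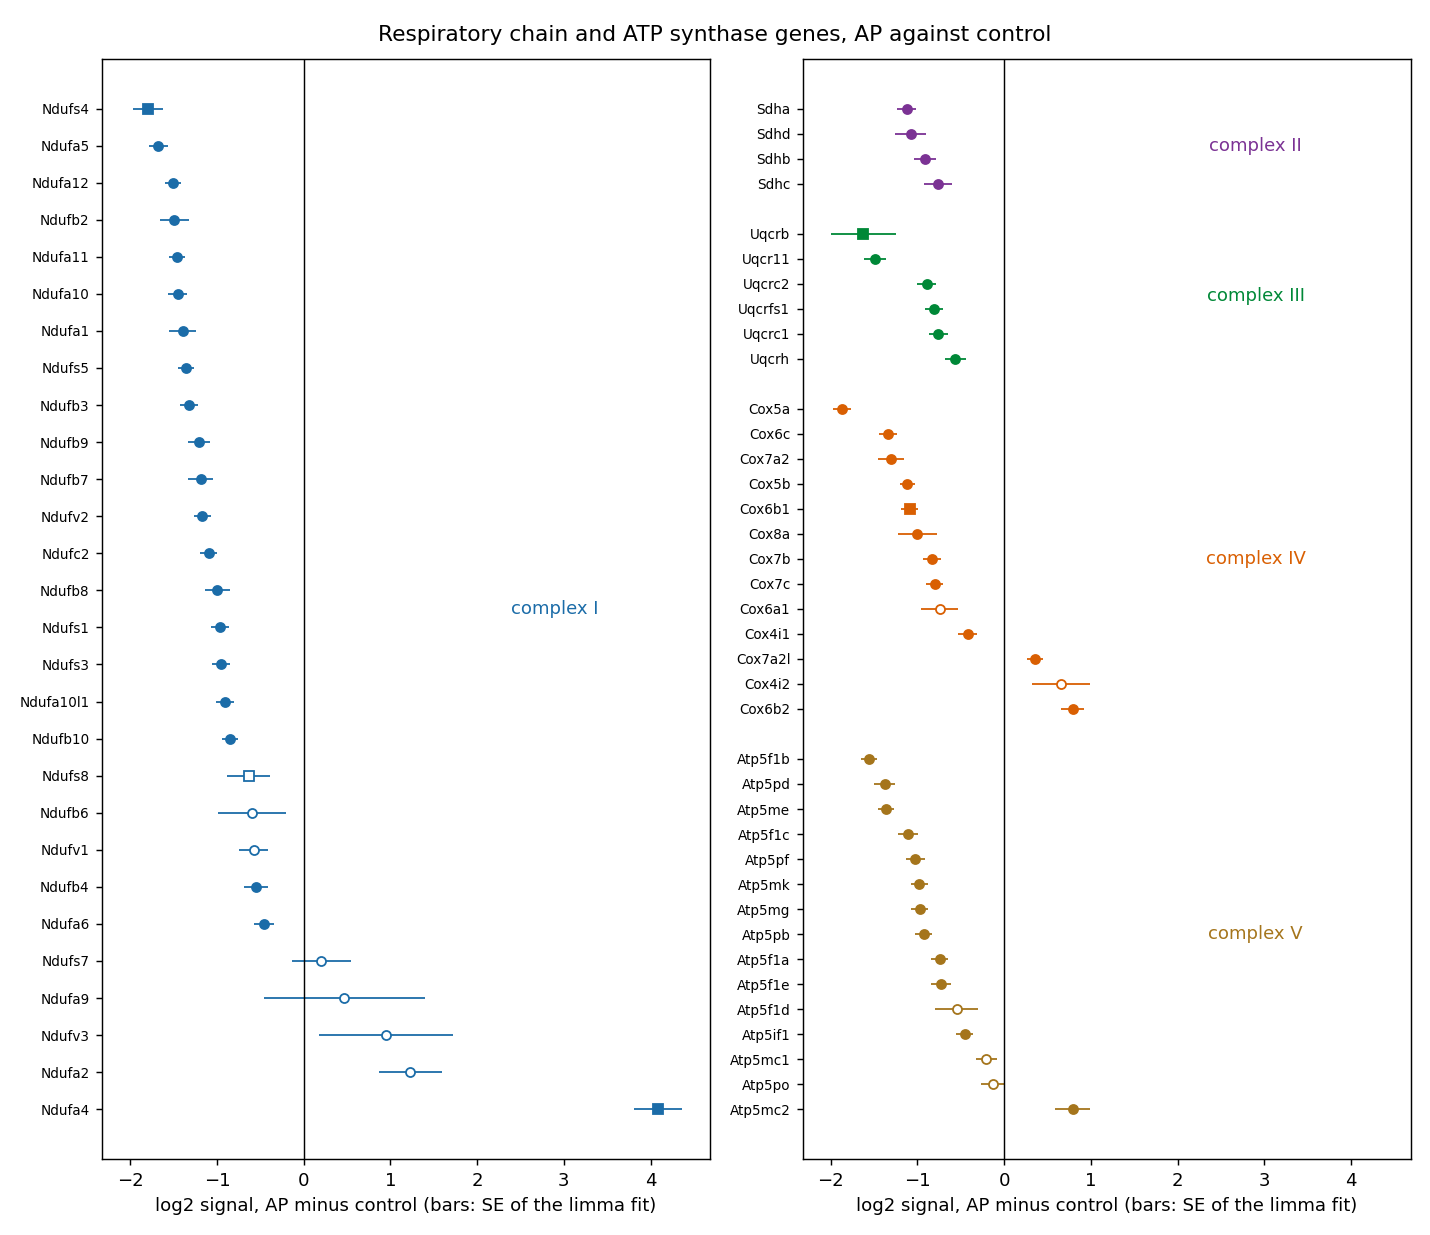
Each point is a tested gene, placed by its log2 signal in AP minus control (x axis), with the standard error of the limma fit (2 arrays per group); filled points had an adjusted p below 0.05, and squares were above background in 1 group only. Points to the left of the line at 0 were lower in AP, and the 4 filled points to its right are Ndufa4, Cox6b2, Cox7a2l and Atp5mc2, of which Cox6b2, Cox7a2l and Atp5mc2 turn negative without scaling between arrays.

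The tissue itself differed between the groups in marker genes of several cell types. The counts below stand beside 31.9% lower and 24.1% higher over all genes tested. White adipocyte markers fell in 7 of 10 tested genes and rose in 1, with a summed signal of 25.4 and 23.5 times the 75th percentile on the AP arrays and 464 and 467 on the control arrays. Erythroid markers fell in 7 of 8 and rose in 1, with sums of 59.6 and 59.3 in AP and 1408 and 1531 in control (log2 differences of -4.77 for Hbb-b1 and -5.22 for the adipocyte gene Fabp4). Neutrophil markers fell in 5 of 6, of which S100a8, Csf3r and Camp were above background on the control scans only and 2 on all scans, with sums of 1.37 and 2.21 in AP and 23.4 and 25.5 in control. Lymphocyte markers rose in 11 of 13 and fell in 1, with sums of 70.2 and 59.0 in AP and 14.6 and 12.5 in control. Over genes on all scans, 6 of 7 adipocyte and 5 of 6 erythroid markers fell and 6 of 7 lymphocyte markers rose.

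Acinar markers, by contrast, rose in 9 of 15 tested genes relative to each array's 75th percentile, and the other 6 were not called. Their sums were 111 and 101 in AP and 85.6 and 85.0 in control. Their median difference was 0.72 under the reported scaling, which moved the median of all genes tested from -0.99 to -0.03. Acinar values without scaling are not reported here. All 15 acinar genes tested were above background on every scan, while the acinar transcription factor genes Rbpjl and Ptf1a were above it on none. Duct markers fell in 4 of 8 and rose in 1, with sums of 28.7 and 34.8 in AP and 27.2 and 26.7 in control. Islet markers fell in 2 of 5 and rose in 1, near the 31.9% lower and 24.1% higher of all genes tested. The islet sums were 4.32 and 4.93 in AP and 8.61 and 10.4 in control. Of these islet genes, Slc30a8, which rose, was above background on the AP scans only and Ins2, which fell, on the control scans only; of the 3 on all scans, 1, Ins1, fell. Brown fat and muscle hold many mitochondria. Ucp1, which defines brown fat, was above background on no scan. The brown adipocyte sums were 28.4 and 12.9 in AP and 7.73 and 14.6 in control, with Zic1 called higher of 3 genes tested. The sum of AP 2 lacks Kcnk3, which had no value there (4.35 on AP 1, 1.29 and 3.16 in control). These sums therefore do not cover the same genes and cannot be compared. The 4 striated muscle genes tested were not called, with sums of 1.48 and 1.94 in AP and 2.03 and 1.17 in control. The part of these shifts in the subunit values was not tested, and in bulk tissue fewer cells of a type and less RNA per cell cannot be told apart.

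Complex I takes electrons from NADH. Of its 26 genes on all scans 20 fell and 6 were not called; the median was -1.05 and the highest value 1.23. Ndufa5, an accessory subunit of the arm that faces the matrix, had 2.63 and 2.71 in AP and 4.28 and 4.42 in control, a difference of -1.68 ± 0.11 (SE, adjusted p = 0.00187). The AP arrays lay far below the control arrays, and the 2 arrays of a group were close together.

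Ndufa12, which sits between the matrix arm and the membrane arm, gave 1.24 and 1.26 in AP and 2.73 and 2.78 in control (-1.51 ± 0.09, adjusted p = 0.00166). Core subunits carry the electrons through the complex. Ndufs1, the largest iron-sulfur subunit, had -0.11 and -0.13 in AP and 0.77 and 0.92 in control (-0.96 ± 0.11, adjusted p = 0.00521). Ndufv1, the subunit that binds NADH and FMN, had -0.71 on both AP arrays and 0.06 and -0.33 on the control arrays, and its -0.57 ± 0.17 missed the threshold (adjusted p = 0.0544). Without control array 2 (replicates 2 and 3) Ndufv1 reached -0.77 (adjusted p = 0.0410). Ndufs4, an accessory subunit needed for a stable complex, was not well above background on the AP scans (-2.10 and -2.32) and lay at -0.59 and -0.24 in control. Its fitted value was 3.47-fold lower in AP (adjusted p = 0.00414, but 0.333 after normexp background correction). The bound for Ndufs4 was no more cautious than this fitted value. Ndufs8, another core iron-sulfur subunit, was also above background in control only, with -3.30 and -2.68 in AP and -2.32 and -2.40 in control (adjusted p = 0.104); its sign turned after normexp, to 0.22.

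By gene series, 7 of 9 Ndufa genes on all scans fell (median -1.39), as did 7 of 8 Ndufb genes (-1.09), 4 of 5 Ndufs genes (-0.96) and 1 of 3 Ndufv genes (-0.57). The 1 Ndufc gene on the array, Ndufc2, a subunit of the membrane arm, fell by 1.09. The 4 complex I genes with a positive value on all scans, named here after their values were seen, were Ndufs7, Ndufa9, Ndufv3 and Ndufa2, and none of the 4 was called. Ndufs7, the core subunit with the last iron-sulfur cluster before the quinone, had 4.88 and 3.99 in AP and 4.21 and 4.25 in control, so that the groups overlapped. Ndufa9, which steadies the junction of the arms, had -0.97 and -1.08 in AP, inside the -0.24 and -2.76 of control. Ndufv3, a small subunit beside Ndufv1, spread from 2.23 to 3.84 in AP and from 1.42 to 2.75 in control, and its second probe was too dim to test. Only Ndufa2, a small accessory subunit, had separate groups: -0.48 and -1.36 in AP and -1.95 and -2.35 in control, a difference of 1.23 ± 0.36 (adjusted p = 0.0549).

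Ndufa4 stood alone. The gene is named for complex I, but its protein is now placed in cytochrome c oxidase. Its probe had -1.01 and -0.95 on the AP arrays and was not well above background in control (-4.70 and -5.43), at least 6.75-fold higher in AP (adjusted p = 0.00206). Counted with complex IV, it gave that complex a median of -0.82 over 14 tested genes, and complex I without it had a median of -1.05 over 28 tested genes. Ndufa4l2, a related gene known to rise in low oxygen, was not analysed here.

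Complex II, succinate dehydrogenase, links the chain to the citric acid cycle. All 4 of its genes were on all scans and all 4 fell, with a median of -0.997 and a range of -1.13 to -0.76. Sdha, the flavoprotein that oxidises succinate, was measured by 2 probes. The brighter gave 2.25 and 2.10 in AP and 3.31 and 3.30 in control (-1.13 ± 0.11, adjusted p = 0.00380); the other gave 2.17 on both AP arrays and 3.16 and 3.21 in control (-1.02 ± 0.09, adjusted p = 0.00357). The 2 probes thus gave nearly the same difference.

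Sdhb, the iron-sulfur subunit, had 0.60 and 0.62 in AP and 1.40 and 1.64 in control (-0.91 ± 0.12, adjusted p = 0.00826). Sdhc had 1.64 and 1.61 in AP and 2.20 and 2.57 in control (-0.76 ± 0.16, adjusted p = 0.0247), and Sdhd 2.61 and 2.99 in AP and 3.80 and 3.96 in control (-1.08 ± 0.18, adjusted p = 0.0126). These 2 proteins anchor the enzyme in the membrane and hold its quinone site, and for both genes the control arrays lay wholly above the AP arrays. Sdhc lost its call without AP array 1 (adjusted p = 0.0880), AP array 2 (0.0981) or control array 2 (0.0605), and Sdhd without control array 1 (0.0540) or control array 2 (0.0734).

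Complex III moves electrons from coenzyme Q to cytochrome c. Its 5 genes on all scans all fell, with a median of -0.81 and a range of -1.49 to -0.56. Uqcr11, its smallest subunit, had 2.74 and 2.97 in AP and 4.32 and 4.37 in control (-1.49 ± 0.13, adjusted p = 0.00308). Uqcrfs1, the Rieske iron-sulfur protein that passes electrons on, had 2.53 and 2.39 in AP and 3.29 and 3.25 in control (-0.81 ± 0.10, adjusted p = 0.00730). The 2 core proteins were closer to the Rieske protein than to Uqcr11. Uqcrc1 gave 1.07 and 1.00 in AP and 1.71 and 1.87 in control (-0.76 ± 0.11, adjusted p = 0.00956; 0.0509 without control array 2). Uqcrc2 had 2.71 and 2.89 in AP and 3.69 on both control arrays (-0.89 ± 0.11, adjusted p = 0.00668). Uqcrb, a subunit at the quinone pocket, was above background in control only, with -3.35 and -2.36 in AP and -1.20 and -1.27 in control, at least 2.31-fold lower in AP (adjusted p = 0.0303). Its call was lost without control array 1 (adjusted p = 0.122) or control array 2 (0.123), and after normexp its value was 0.12.

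Complex IV is cytochrome c oxidase. Of its 12 genes on all scans 8 fell, 2 rose and 2 were not called, with a median of -0.82 and a range of -1.87 to 0.79. Cox5a, a subunit on the matrix side, had the lowest value of all 62 genes: 3.33 and 3.27 in AP, against 5.22 and 5.11 in control (-1.87 ± 0.10, adjusted p = 0.00138), a 3.65-fold difference. Cox6c had 4.63 and 4.74 in AP and 5.97 and 6.08 in control (-1.34 ± 0.11, adjusted p = 0.00282). Cox5b, the zinc-binding subunit, had 3.98 and 3.95 in AP and 5.08 on both control arrays (-1.12 ± 0.09, adjusted p = 0.00288). The arrays of a group lay close together for these 3 genes, well apart from the other group.

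Several complex IV subunits exist as isoforms that tissues use differently, and the isoforms measured are given side by side; differences between isoforms were not tested. Cox4i1, the common form of the subunit that senses the ATP level, had -0.06 and -0.22 in AP and 0.31 and 0.25 in control (-0.42 ± 0.11, adjusted p = 0.0405); leaving out any 1 array ended the call (adjusted p from 0.0682 to 0.140). Cox4i2, the form known from lung and from low oxygen, had -1.65 and -1.69 in AP and -1.88 and -2.76 in control, and its 0.65 ± 0.33 was not called (adjusted p = 0.179); it turned to -0.31 without scaling between arrays. Without control array 1 its difference was 1.09 (adjusted p = 0.0281).

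Cox6b1, the common form of a subunit that faces the intermembrane space, was not well above background in AP (-2.71 and -2.77) and had -1.63 and -1.67 in control, at least 1.81-fold lower in AP (adjusted p = 0.00324), though its fitted value was 0.22 after normexp. Cox6b2, known as the testis form, had 5.91 and 5.82 in AP and 4.95 and 5.20 in control, a difference of 0.79 ± 0.13 (adjusted p = 0.0137) that became -0.17 without scaling between arrays. Cox6b2 lost its call without AP array 1 (adjusted p = 0.0626), AP array 2 (0.0543) or control array 1 (0.0501). The pair thus had opposite signs under the reported scaling, and whether the Cox6b2 probe reads that transcript alone was not tested.

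Among the Cox7 genes, Cox7a2 had 3.68 and 3.37 in AP and 4.77 and 4.89 in control (-1.30 ± 0.15, adjusted p = 0.00587), and Cox7b had 3.35 and 3.44 in AP and 4.16 and 4.30 in control (-0.83 ± 0.11, adjusted p = 0.00727). Both are small subunits in the membrane, Cox7a2 being the form known from most tissues outside muscle. Cox7a2l, a related protein that joins complexes III and IV into supercomplexes, was 3.53 and 3.49 in AP and 3.17 and 3.14 in control. Its 0.35 ± 0.09 (adjusted p = 0.0397) was small, lost its call when any 1 array was left out (adjusted p from 0.111 to 0.138), and was -0.60 without scaling between arrays and -0.02 after normexp background correction, which models background and signal together. Cox8a, the common form of the smallest subunit, had 5.08 and 4.61 in AP and 5.70 and 6.00 in control (-1.004 ± 0.22, adjusted p = 0.0275), and its call was lost without AP array 2 (0.0734), control array 1 (0.0708) or control array 2 (0.121). Cox6a1, the common form of a regulatory subunit, had 4.22 and 3.71 in AP and 4.63 and 4.79 in control (-0.75 ± 0.22, adjusted p = 0.0530), and it was called, at -1.0005, without AP array 1 (adjusted p = 0.0296). The muscle forms Cox6a2 and Cox8b and the testis form Cox8c were too dim to test, and Cox7a1, Cox7b2 and Atp5mc3 were not analysed here.

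Complex V makes ATP in a catalytic head, F1, driven by a rotor in the membrane. All 15 of its genes were on all scans: 11 fell, 1 rose and 3 were not called, with a median of -0.93 and a range of -1.55 to 0.79. The head had 4 of 5 genes lower (median -0.74). The stalk and membrane part, here every other Atp5 gene by name and so with the inhibitor Atp5if1, had 7 of 10 lower and 1 higher (median -0.95). Atp5f1b, the catalytic beta subunit, had 4.89 and 4.95 in AP and 6.47 and 6.48 in control (-1.55 ± 0.09, adjusted p = 0.00161). Atp5f1a, the alpha subunit that alternates with it in the head, had 4.90 and 4.83 in AP and 5.57 and 5.65 in control (-0.74 ± 0.10, adjusted p = 0.00762). Atp5f1c, the central shaft, fell by 1.11 (SE 0.11, adjusted p = 0.00457). The beta subunit was 2.94-fold lower in AP and the alpha subunit 1.68-fold, although the head holds equal numbers of both; the difference between these probes was not tested.

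In the stalk and membrane part, Atp5pd, part of the outer stalk, had 1.82 and 1.63 in AP and 3.05 and 3.16 in control (-1.38 ± 0.12, adjusted p = 0.00328). Atp5me, a small membrane subunit, had 4.56 and 4.53 in AP and 5.92 and 5.88 in control (-1.36 ± 0.09, adjusted p = 0.00201). The higher AP array lay 1.23 below the lower control array for Atp5pd and 1.33 below it for Atp5me. Atp5if1, counted with this part by its name alone, is the inhibitor that blocks the enzyme from running backwards. It differed less, with 2.99 and 3.01 in AP and 3.50 and 3.42 in control (-0.46 ± 0.10, adjusted p = 0.0235), and lost its call when any 1 array was left out (adjusted p from 0.0752 to 0.0919).

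The genes of the rotor ring encode 1 mature protein, subunit c, behind different import sequences. Atp5mc1 had 3.29 and 3.14 in AP and 3.35 and 3.50 in control, and its -0.21 ± 0.12 was not called (adjusted p = 0.219). Atp5mc2 had 4.33 and 4.61 in AP and 3.48 and 3.88 in control, and its 0.79 ± 0.20 was called higher (adjusted p = 0.0386) but became -0.17 without scaling between arrays. Leaving out any 1 array ended the Atp5mc2 call (adjusted p from 0.0545 to 0.140). Atp5po, which clamps the outer stalk to the head, was chosen after its values were seen: 1.66 and 1.75 in AP and 1.97 and 1.70 in control, with overlapping groups (adjusted p = 0.463).

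**Figure D2:**
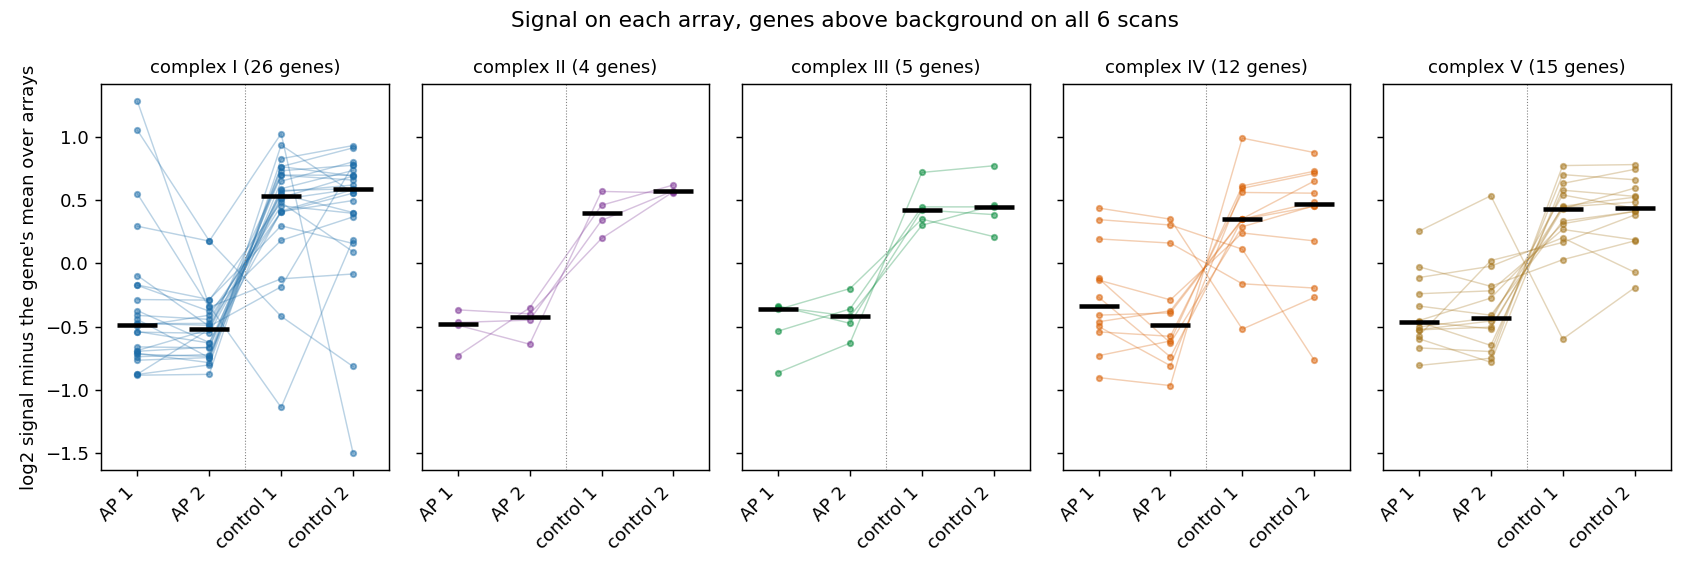
Each dot is 1 gene on 1 array, as its log2 signal minus its mean over the 4 arrays (y axis), for the 62 genes above background on all 6 scans; lines join the values of 1 gene and black bars are the medians of a complex. In every panel both AP medians lie below 0 and both control medians above it, and the few lines that slope the other way include Ndufa2, Cox6b2, Cox7a2l and Atp5mc2, of which Cox6b2, Cox7a2l and Atp5mc2 turn negative without scaling.

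The 5 complexes had similar medians, from -1.05 in complex I to -0.81 in complex III over the genes on all scans, and their ranges overlapped. Complexes II and III were made up of lower genes alone, while genes that were not called or were higher lay in complexes I, IV and V. Over all tested genes the order from the lowest median was I and II (both -0.997), V (-0.93), III (-0.85) and IV (-0.83). This order changed with the processing. After cyclic loess normalization complex V had the lowest median, -1.16, and complex II the highest, -0.93, and with normexp and quantile normalization complex V was again lowest, at -0.94, and complex II highest, at -0.67. Differences between the complexes were not tested, since genes of a complex are not replicates. Scaling on the array median ended the calls of Atp5f1a (adjusted p = 0.0741), Uqcrc1 (0.0682) and Uqcrfs1 (0.0520), besides those of Sdhc, Cox4i1, Atp5if1 and the 3 genes called higher on all scans, and normexp background correction ended that of Ndufs1 (0.0846).

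**Figure D3:**
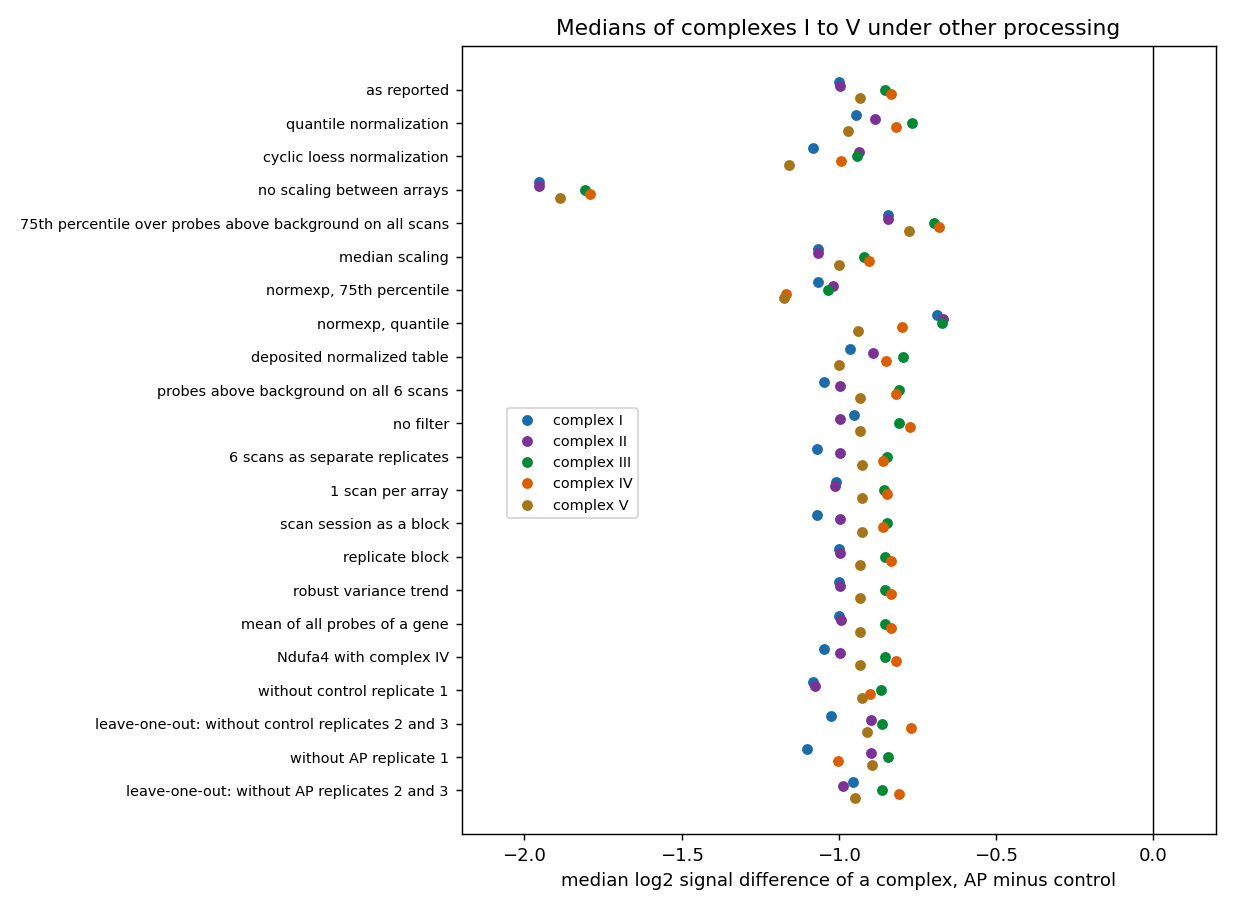
Each dot is the median log2 difference (AP minus control, x axis) over the tested genes of 1 complex, with 1 row for each way of processing the arrays and 1 colour for each complex. All medians lie below 0, the row without scaling lies furthest left (-1.95 for complexes I and II), and the order of the colours changes between rows.

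Probes for these genes may also read processed pseudogenes, copies of spliced transcripts that are common for small subunits. RefSeq lists a named pseudogene for 31 of the 62 genes on all scans: 25 of these 31 fell and 1 rose, with a median of -0.98, and of the 31 without one 23 fell and 2 rose, with a median of -0.91. The differences also varied with brightness: across the 62 genes the difference and the mean signal had r = -0.31 and rho = -0.17, against -0.10 and -0.15 across the 6761 genes. These are correlations across genes of the same 4 arrays, given as a description.

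Promoters were available for 66 of the 75 genes (RefSeq, GRCr8, from 250 bases before to 50 after the start). Many respiratory genes are known targets of the transcription factors NRF1, GABP (also called NRF2) and YY1. Exact letters of 3 motifs were searched on both strands: GCGCATGCG for NRF1, CCGGAAGT for GABP and AAGATGGCG for YY1. The NRF1 letters were in 6 of these promoters (9.09%), against 1.52% of all 33469 promoters. The GABP letters were in 7 (10.6%), against 3.81%, and the YY1 letters in 8 (12.1%), against 1.73%. Among tested genes alone, 10.3% of 58 subunit promoters held the NRF1 letters, against 2.99% of 7468 promoters. For GABP these shares were 10.3% and 7.79%, and for YY1 13.8% and 2.95%. Together 20 promoters held at least 1 of the 3.

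The windows below show these motifs in genes that fell, rose or were not called. Capitals mark the matches, each window is on the strand of its gene, and positions count from the RefSeq start. The NRF1 letters read almost the same on both strands, so that the runs of capitals hold overlapping matches.
Ndufa11, NRF1, GRCr8 chr9:1637497-1637545, plus strand, match from -97: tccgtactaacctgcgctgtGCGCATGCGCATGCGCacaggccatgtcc
Atp5me, NRF1, GRCr8 chr14:1464764-1464812, plus strand, match from -76: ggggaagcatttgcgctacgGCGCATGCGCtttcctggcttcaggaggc
Atp5po, NRF1, GRCr8 chr11:44657514-44657562, minus strand, match from -59: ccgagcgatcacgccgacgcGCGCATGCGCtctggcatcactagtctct
Atp5mc2, NRF1, GRCr8 chr7:135678246-135678294, minus strand, match from -56: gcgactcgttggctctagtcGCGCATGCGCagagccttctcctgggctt
Ndufs1, GABP, GRCr8 chr9:72073778-72073825, minus strand, match from -200: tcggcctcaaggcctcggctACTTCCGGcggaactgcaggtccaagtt
Cox8a, GABP, GRCr8 chr1:213833654-213833701, minus strand, match from -58: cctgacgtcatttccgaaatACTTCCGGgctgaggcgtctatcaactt
Cox5b, GABP, GRCr8 chr9:46417813-46417840, plus strand, match from -14: ctgtctgttcCCGGAAGTgcatctgctt
Ndufs4, YY1, GRCr8 chr2:47794892-47794920, minus strand, match from 5: tgcccacaggAAGATGGCGgcggtctcaa
Ndufs7, YY1, GRCr8 chr7:10110476-10110504, minus strand, match from 5: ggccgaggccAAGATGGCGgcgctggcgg

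The windows were picked to show each direction. Ndufa11 (-1.46, adjusted p = 0.00186), an accessory subunit of the membrane arm, and Atp5me (-1.36) fell, Atp5po (-0.13) was not called, and Atp5mc2 was called higher at 0.79 (-0.17 without scaling), with the same NRF1 letters in all 4 windows. Of the 6 tested genes with the NRF1 letters 4 fell and 1 rose (median -0.87), against 40 and 3 of the 52 without (-0.92). All 6 tested genes with the GABP letters fell (median -0.98), against 38 of 52 without, where 4 rose (-0.90). With the YY1 letters 5 of 8 fell (median -0.61), against 39 of 50 without, where 4 rose (-0.94).

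The genes that build and feed the complexes were set beside the subunits. All their values are under the reported scaling, which moved the median of all genes tested from -0.99 to -0.03. Rises of about the size of that shift depend on it, and values of these lists without scaling are not reported here. Complex I assembly factors fell in 6 of 11 tested, with a median of -0.50, beside 31.9% lower over all genes tested. Over the 9 on all scans they fell in 4, with a median of -0.16. Ecsit (-0.77 ± 0.09, adjusted p = 0.00634) and Acad9 (-0.69 ± 0.11, adjusted p = 0.0128), both of an early assembly complex, had the largest changes among those 9. Ndufaf1 and Ndufaf7 were above background on the control scans only, Ndufaf1 at least 1.18-fold lower in AP (adjusted p = 0.00504). No bound could be given for Ndufaf7. The 1 complex II factor tested, Sdhaf2, which loads the flavin onto Sdha, fell by 1.07 (SE 0.09, adjusted p = 0.00310). Complex III factors split under the reported scaling. Uqcc2 (-1.06) and Uqcc6 (-0.44) fell, and Bcs1l, which inserts the Rieske protein, rose by 0.94 (SE 0.16, adjusted p = 0.0150), as did Uqcc4 (0.89).

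For complex IV 3 of 9 factors fell, near the 31.9% of all genes, with a median of -0.40, and over the 7 on all scans 2 fell, with a median of -0.21. The larger changes were in Higd1a (-1.84 ± 0.22, adjusted p = 0.00642), a small protein known to rise in low oxygen, and Coa3 (-0.82 ± 0.10, adjusted p = 0.00645), which steadies newly made Cox1. Higd1a was not above background on every scan. For complex V, Tmem70 (-0.87), which helps to build the rotor ring, fell and Tmem242 (1.26) rose of 5 tested. These counts stand beside 31.9% lower and 24.1% higher over all genes tested. Tmem70 was not above background on every scan. Apart from complex II, with 1 gene, assembly factors thus lay closer to the array-wide median than the subunits did, as values side by side; that difference was not tested.

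The mobile carriers and the makers of coenzyme Q fell in 11 of 18 tested genes and rose in 2, with a median of -0.97. Over all genes tested 31.9% were lower and 24.1% higher. Of the 14 genes of the list on all scans 8 fell and 2 rose, with a median of -0.76. Sqor, which feeds electrons from sulfide into coenzyme Q, fell by 3.10 (SE 0.25, adjusted p = 0.00291), but it was not above background on every scan. Etfa, a subunit of the flavoprotein that takes electrons from fat oxidation, fell by 1.81 (SE 0.09, adjusted p = 0.00128). Under the reported scaling its partner Etfb rose by 1.14 (SE 0.11, adjusted p = 0.00365), and Coq10a, which binds coenzyme Q, by 1.42 (SE 0.24, adjusted p = 0.0138). Cycs, cytochrome c, had a value of -0.85 that was not called (adjusted p = 0.0830).

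Uncoupling and peroxide-removing genes fell in 5 of 7 tested and rose in 1, with a median of -1.28. All 7 were on all scans, where 30.8% of genes were lower and 28.0% higher. Prdx5, a peroxide-removing enzyme, fell by 3.62 (SE 0.14, adjusted p = 0.000841) and Sod2, the manganese superoxide dismutase of the matrix, by 3.22 (SE 0.10, adjusted p = 0.000698). Ucp2, an inner membrane carrier, rose by 1.03 under the reported scaling (SE 0.25, adjusted p = 0.0331). Prdx5 and Sod2 lay outside the range of the subunits on all scans, -1.87 to 1.23.

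Next came the machinery of the mitochondrial genome. Of 49 mitochondrial ribosome genes tested 19 fell and 7 rose, with a median of -0.41, beside 31.9% lower and 24.1% higher over all genes tested. They ran from Mrps15 (2.29 ± 0.10, adjusted p = 0.00097) and Mrpl40 (1.08) on the high side to Mrps30 (-1.15 ± 0.12, adjusted p = 0.00490) and Mrpl16 on the low side, the last above background in control only and at least 1.04-fold lower in AP. Of 15 genes for mitochondrial DNA upkeep and transcription 5 fell and 2 rose, with a median of -0.31, so that the lower share was near the 31.9% of all genes. Over the 10 on all scans 2 fell and 2 rose. Polg2, the accessory subunit of the mitochondrial DNA polymerase, rose under the reported scaling by 1.17 (SE 0.12, adjusted p = 0.00420) and Tfb2m, a transcription factor of mitochondria, by 1.04 (SE 0.10, adjusted p = 0.00436). The Tfb2m probe was very bright, at 9.18 and 9.16 in AP and 8.06 and 8.20 in control. Whether it reads that transcript alone was not tested. Tefm, the elongation factor, was at least 1.88-fold lower in AP (adjusted p = 0.0258), and Twnk, the DNA helicase, was also called lower (adjusted p = 0.00869). Both were above background in control only, so that a difference was built into their selection. No bound on the size of the fall could be given for Twnk. Tfam, which packs and transcribes mitochondrial DNA, had -0.34 ± 0.10 and was not called (adjusted p = 0.0561).

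Regulators of nuclear genes for mitochondria were mostly dim. Esrra, a nuclear receptor known to drive oxidative genes, was the 1 gene of 6 tested that was called, at -1.32 ± 0.09 (adjusted p = 0.00207). Among all genes tested, 31.9% were lower and 24.1% higher. Nrf1, above background in control only, had -0.74 and was not called (adjusted p = 0.0824). Ppargc1a, the coactivator best known for raising mitochondrial gene expression, was well above background on no scan, nor were Ppargc1b, Esrrg and Ppara.

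**Figure D4:**
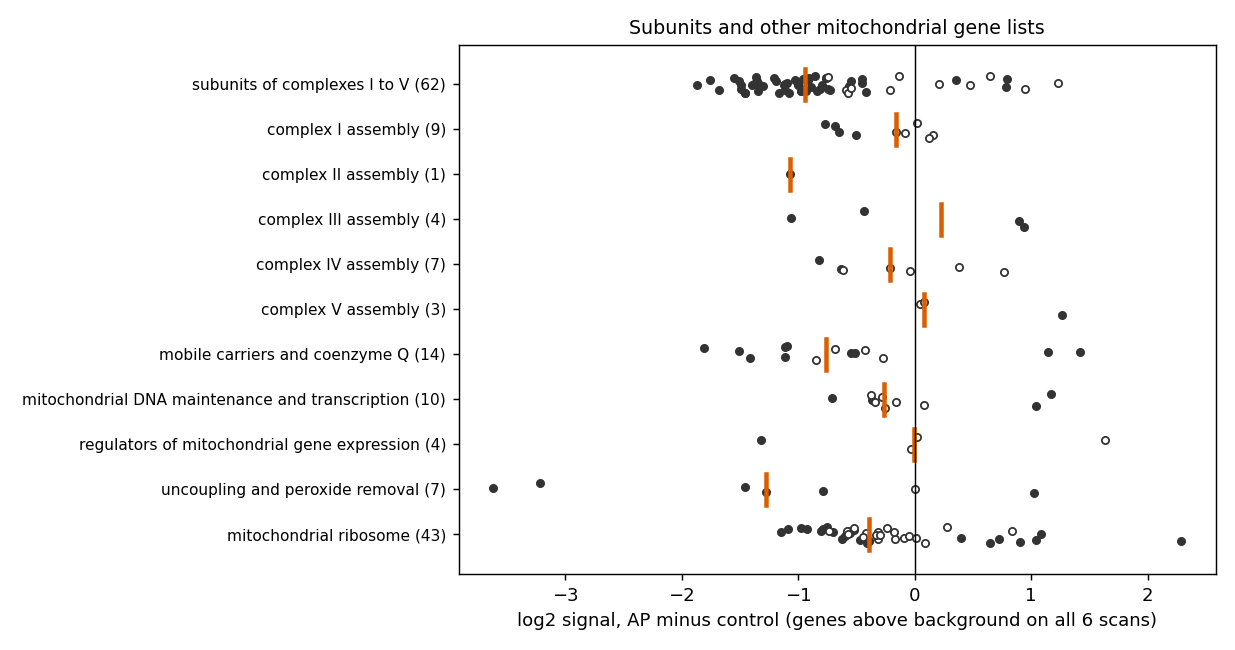
Each dot is 1 gene above background on all 6 scans, placed by its log2 signal in AP minus control (x axis), with 1 row per gene list and the number of genes in parentheses; filled dots had an adjusted p below 0.05 and orange bars are medians. The row of the 62 subunits has its median at -0.94 and the mitochondrial ribosome row at -0.39; the uncoupling and peroxide removal row, at -1.28, holds the dots furthest left, Prdx5 (-3.62) and Sod2 (-3.22).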

How the data were processed

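Scanner tables deposited by the authors hold spot intensity after Agilent's background subtraction and detrending, with no scaling between arrays, per the file headers (Feature Extraction 11.0.1.1, rn4 design). Per the labels, rRNA-depleted total RNA was random-primed and labelled with Cy3. The authors' deposited normalized table is in log2, made with a tool that the labels and files do not name. Symbols came from RefSeq (GRCr8) through probe accessions.

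The log2 intensity was scaled to the array's 75th percentile, flagged spots were left out, spots of a probe were averaged, and 13225 probes well above background on at least 3 scans were kept (in at least 50% of a probe's spots). Scans whose spot deviations correlated above 0.9 were averaged as 1 array, which departs from the planned 6 samples. limma 3.58.1 (R 4.3.3) fitted 13213 probes with empirical Bayes and Benjamini-Hochberg adjustment; 64 had 1 array in a group, and their lone value is assumed to vary like the rest. The brightest probe stood for a gene. A probe dim in 1 group gives only a bound ("at least"). It was set on each array of that group by the lowest signal well above background, or by the probe's own signal where higher. The residual degrees of freedom were 2, all arrays shared 1 slide, and the number of arrays limits the precision. The fit was tested on simulated data.

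Named per complex were the 4 genes with the largest called change each way, isoform sets and core subunits fixed by name, all Sdh genes and members above background in 1 group; per pathway list, the 2 largest called changes each way, with Tfam, Ppargc1a, Nrf1 and Cycs; 1 complex I gene that the rule names is counted but not reported here. Members, lists and tests were chosen with earlier results of these data known. Same-numbered arrays deviated from their group means with r = -0.22 over 13122 probes. This rests on a single difference within each group, so it cannot show whether replicate numbers pair the arrays. The main fit did not pair them. Alternatives covered background correction, scaling, the filter, scans, blocks, probes and left-out arrays.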

Additional observations from a re-analysis of the deposited data

How the results depend on the processing

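Over 22 alternatives, 1 of them (crossed pairing) added after the data were seen and run for the counts alone, 40 to 59 subunits were lower in AP. Over the other 21, 667 of 772 values of the 37 named and tested subunits kept direction and call; 66 lost the call, 31 gained it and 8 changed sign. Leaving out 1 array left 41 to 46 lower and 1 to 3 higher, and complex medians of -1.10 to -0.95 (I) and -1.0005 to -0.77 (IV). The count of higher subunits was 1 with cyclic loess, with no scaling and with normexp at the 75th percentile, and 2 with median scaling. Without scaling the medians were -1.91 (all), -1.95 (I and II), -1.81 (III), -1.79 (IV) and -1.89 (V), and Atp5mc2 (-0.17), Cox4i2 (-0.31), Cox6b2 (-0.17) and Cox7a2l (-0.60) turned negative. With the percentile over probes detected on all scans they were -0.80 (all), -0.84 (I and II), -0.70 (III), -0.68 (IV) and -0.78 (V). Normexp at the 75th percentile gave -1.15 (all), -1.06 (I), -1.03 (III) and -1.17 (IV and V), and turned Cox6b1 (0.22), Ndufs8 (0.22), Uqcrb (0.12) and Cox7a2l (-0.023). Normexp with quantile gave -0.73 (all), -0.69 (I) and -0.67 (II and III). Cyclic loess gave -1.08 (I), -0.94 (III), -0.99 (IV) and -1.16 (V). Quantile normalization gave -0.94 (I) and -0.88 (II), the deposited table -0.89 (II), and median scaling, 6 separate scans and the scan session as a block -1.07 each (I). The cause of these shifts was not tested.

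The replicate block, though whether the numbers pair the arrays could not be shown, gave 44 lower and 4 higher subunits. The crossed pairing, added after seeing the data, gave 50 lower and 3 higher. Array-wide, 2106 genes were higher and 2785 lower as reported; the counts were 463 and 5452 without scaling, 561 and 1404 with normexp at the 75th percentile, 1301 and 2125 with median scaling, and 3297 and 2508 with no filter. The share of calls that were lower was 56.9% as reported, 92.2% without scaling, 71.5% with normexp at the 75th percentile and 43.2% with no filter. Without control array 2 or AP array 2 the array-wide counts were 1257 and 1874, and 1500 and 2248. Dim probes limit what can be said of Ndufa4, Ndufs4, Ndufs8, Uqcrb and Cox6b1, and 2 arrays per group limit every adjusted p.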
